A study of Homo sapiens with 6 samples.

Results

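The genes described here are the FOXO transcription factors FOXO1, FOXO3 and FOXO4 and 7 genes reported to be induced by them: PIK3IP1, KLHL24, SESN1, SESN3, TSC22D3, BCL6 and TXNIP. They were taken by symbol from the deposited count table, where each symbol named exactly 1 row, so that 10 of 58735 genes were members. The RNA came from Ovcar8 cells, a long-established ovarian carcinoma line, grown in RPMI-1640 medium. The FBS group was kept with 5% fetal bovine serum and the serum-starved (SS) group without serum, each for 48 h, with 3 libraries per group and no other treatment named in the labels. All values come from this 1 line. The labels name no separate cultures, so p-values refer only to the spread among libraries, which may be technical. In bulk RNA, fewer cells of a type and less RNA per cell cannot be told apart.

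FOXO proteins are forkhead transcription factors that act below growth factor receptors. When insulin, IGF or other factors in serum activate phosphoinositide 3-kinase (PI3K), the kinase AKT phosphorylates FOXO proteins, and 14-3-3 proteins then hold them in the cytoplasm. When that signal falls, FOXO proteins enter the nucleus and induce genes of growth restraint, stress defence and catabolism. This control acts on the protein, and RNA counts do not measure it.

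Without serum, FOXO1, FOXO3, FOXO4 and TSC22D3 were each higher in all 3 serum-starved libraries than in any library with FBS, with fitted changes of 2.90-fold, 2.36-fold, 2.17-fold and 2.22-fold. The other 6 genes overlapped between the groups. SESN3, BCL6 and TXNIP had fitted changes above 0, and PIK3IP1, KLHL24 and SESN1 below 0. The test was edgeR's quasi-likelihood F-test, adjusted over 13772 genes by the Benjamini-Hochberg method, and none of the 10 passed an adjusted p of 0.05. That threshold called 0.283% of all tested genes, 0.24% higher and 0.0436% lower. At an unadjusted p under 0.05, 4 of the 10 were higher and 0 lower, against 6.01% and 4.37% of tested genes (10.4% in all). Groups that do not overlap were found for 4 of the 10, all with SS higher, and for 17.7% of tested genes, 10% with SS higher and 7.65% lower. With limma-voom 0 of the 10 were called as well, and DESeq2 called 0 of the 8 to which it gave an adjusted p (none for PIK3IP1 and SESN1). The members' median log2 fold change was 0.37, against -0.02 over all tested genes. These shares rest on genes that were proposed with earlier results of the same libraries known.

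The libraries held 16379416 to 19558484 counts. On log2 CPM (counts scaled to library size) they correlated at 0.904 to 0.975 within groups and at 0.912 to 0.973 between groups (Pearson, across genes, which are not independent replicates). Libraries of 1 group differed in how counts depended on GC content and gene length. In the tenth of genes with the lowest GC content the median log2 deviation from the mean of the libraries was -0.63 in SS replicate 1, 0.70 in FBS replicate 1 and between -0.27 and 0.25 in the other libraries. In the tenth of genes with the greatest length it was 0.43 in SS replicate 3 and between -0.18 and 0.06 elsewhere. Among the carcinoma markers, the keratin KRT8 (871 ± 221 FPKM with FBS) and the lineage factor PAX8 (8.48 ± 1.03 FPKM, SD, n = 3) were present, while MUC16, SOX17 and EMX2 had no counts. Means over the 6 libraries were 909, 272 and 85.6 FPKM for KRT18, KRT7 and MSLN. VIM and CDH2, on the same list, were at 207 and 9.97 FPKM. EPCAM, WT1 and CDH1 were low at 1.00, 0.45 and 0.086 FPKM, and KRT19 did not reach the test. Of 8 fibroblast markers only COL1A1 reached the test, and COL1A2, DCN and FAP had no counts in any library. The summed level of that list was 319 to 577 CPM with FBS and 763 to 832 CPM without serum. Nearly all of it was COL1A1 alone, at 318 to 577 CPM with FBS and 762 to 831 CPM without serum. Of 11 immune and endothelial markers 3 were tested and none passed, while 1 passed as higher without SS replicate 3. That fit called 1.86% of all tested genes, 0.893% as higher. VWF, an endothelial gene, did not overlap between groups (0.347 ± 0.114 and 2.72 ± 1.45 CPM; SD, n = 3), with a log2 fold change of 2.94 and an edgeR adjusted p of 0.134. The list summed to 1.98 to 3.77 CPM with FBS and 5.42 to 7.75 CPM without serum, with CD3E and HBB at 0. The part of these markers in the results below was not tested.

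**Figure D1:**
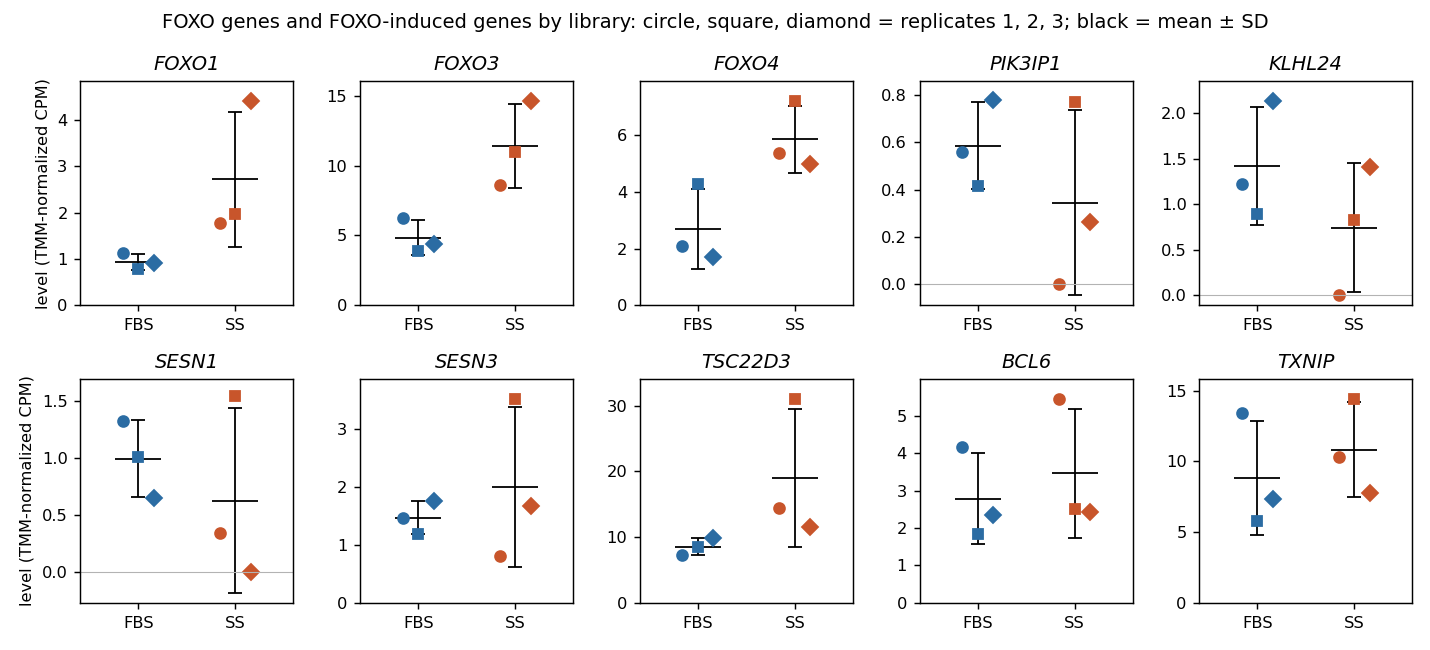
Level of each of the 10 genes in every library, in CPM after TMM scaling (y axis, linear), for the FBS and serum-starved (SS) groups. Blue is FBS and orange SS, circles, squares and diamonds are replicates 1, 2 and 3, and black marks give the mean and SD. In FOXO1, FOXO3, FOXO4 and TSC22D3 the lowest SS point lies above the highest FBS point, and in the other 6 panels the groups overlap.

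FOXO3 is the FOXO factor best known for long-term restraint of growth and survival (ENSG00000118689, GRCh38 chromosome 6, 108559835 to 108684774, plus strand). Its level was 6.25, 3.87 and 4.35 CPM in FBS replicates 1, 2 and 3, and 8.63, 11 and 14.6 CPM in SS replicates 1, 2 and 3. All SS libraries were above all FBS libraries, and SS replicate 3 was the highest. The means were 4.83 ± 1.26 and 11.4 ± 3.02 CPM (SD, n = 3), with a log2 fold change of 1.24, a 95% interval from 0.40 to 2.08 and an edgeR adjusted p of 0.289. Its unadjusted p of 0.0061 placed it at rank 287 of 13772. With any single library left out, the log2 fold change was between 1.02 and 1.47, and the edgeR adjusted p between 0.157 and 0.811. Reads of FOXO3 may be shared with FOXO3B, a near-identical copy elsewhere in the genome that was counted separately. FOXO3B was at 1.42, 2.20 and 3.70 CPM in the FBS libraries and at 1.77, 3.13 and 3.17 CPM in the SS libraries (a log2 fold change of 0.15 with an edgeR adjusted p of 0.951), so the value of FOXO3 is uncertain by the way such reads were assigned.

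FOXO1 is the FOXO factor best known for insulin-regulated metabolism (ENSG00000150907, chromosome 13, 40469953 to 40666597, minus strand). It rested on 22, 13 and 14 counts in the FBS libraries and on 26, 36 and 100 counts in the SS libraries. On the CPM scale these were 1.12, 0.774 and 0.91 with FBS and 1.77, 1.98 and 4.40 without serum. The SS group was above the FBS group in every library, but SS replicate 3 stood more than the whole FBS range above the other SS libraries. The log2 fold change was 1.54 (95% interval 0.24 to 2.83, edgeR adjusted p = 0.396). It was 1.00 without SS replicate 3 and 1.44 to 1.79 when each other library was left out.

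FOXO4 is the X-linked FOXO factor (ENSG00000184481, chromosome X, 71096197 to 71103535, plus strand). Its levels with FBS were 2.08, 4.29 and 1.69 CPM, and without serum 5.37, 7.19 and 4.98 CPM. The gap between the groups lay between FBS replicate 2 and SS replicate 3. Group means were 2.69 ± 1.40 and 5.84 ± 1.18 CPM (SD, n = 3), the log2 fold change was 1.12 (95% interval 0.12 to 2.12) and the edgeR adjusted p was 0.42. Leaving out FBS replicate 2 gave 1.64, and leaving out FBS replicate 3 gave 0.89.

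TSC22D3, also called GILZ, encodes a leucine zipper protein that is induced by glucocorticoids as well as by FOXO factors (ENSG00000157514, chromosome X, 107713221 to 107777342, minus strand). Per length its mean was above that of TXNIP without serum (3.89 and 2.91 FPKM) and below it with FBS (1.75 and 2.37 FPKM). The FBS libraries lay close together at 7.27, 8.52 and 9.88 CPM, and the SS libraries were at 14.5, 31.0 and 11.5 CPM. SS replicate 2 was more than double either of the other SS libraries. The means were 8.55 ± 1.31 and 19.0 ± 10.5 CPM (SD, n = 3), with a log2 fold change of 1.15, a 95% interval from 0.31 to 1.99 and an edgeR adjusted p of 0.321. TSC22D3 was the only one of the 10 genes to pass in any alternative: without SS replicate 3 it rose by a log2 fold change of 1.41 at an edgeR adjusted p of 0.0361, in a fit that called 1.86% of genes, 0.893% higher and 0.966% lower. Without SS replicate 2 the log2 fold change was 0.60 and the edgeR adjusted p 0.713. Another list held other glucocorticoid receptor targets and the gene of the receptor itself. Of its 12 tested genes, 1 had a fold change above 0 (48.5% of all tested genes did) and none passed (median -0.37). The smallest p-values on that list belonged to the metallothioneins MT1X (log2 fold change -0.81, edgeR adjusted p = 0.457) and MT2A (-0.74, 0.506).

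**Figure D2:**
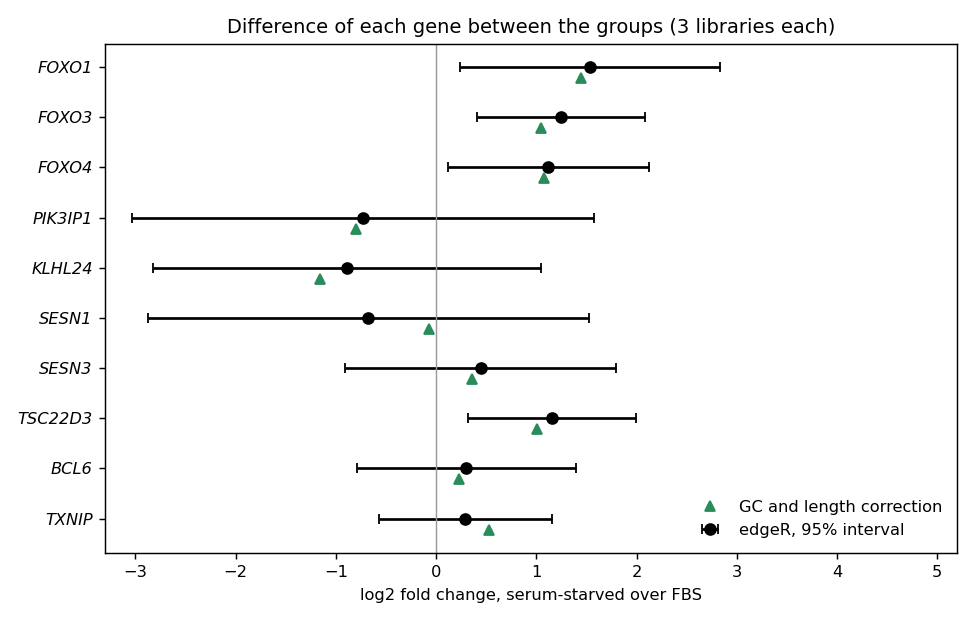
Log2 fold change, serum-starved over FBS (x axis), for each of the 10 genes. Black points and bars are edgeR estimates with 95% intervals from 3 libraries per group, and green triangles are the estimates after the GC and length correction. The unadjusted intervals of FOXO1, FOXO3, FOXO4 and TSC22D3 lie above 0, and those of the other 6 genes span 0.

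TXNIP binds and inhibits thioredoxin and limits glucose uptake (ENSG00000265972, chromosome 1, 145992435 to 145996600, minus strand). Its levels were 13.4, 5.78 and 7.34 CPM in FBS libraries and 10.3, 14.4 and 7.79 CPM in SS libraries. FBS replicate 1 was above SS replicates 1 and 3, so the groups overlapped. The log2 fold change was 0.29 (95% interval -0.57 to 1.15, edgeR adjusted p = 0.86), which does not exclude a change of 2-fold upward. Without FBS replicate 1 it was 0.72. TXNIP is also a target of the glucose sensor MondoA (MLXIP) and its relative ChREBP (MLXIPL). Of 7 tested genes on the list for that axis none passed; MLXIP averaged 97.9 ± 22.9 CPM in FBS and 199.7 ± 36.2 in SS libraries (SD, n = 3), a log2 fold change of 1.03 at an edgeR adjusted p of 0.256, and MLXIPL had 1.58 on that scale (0.497).

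BCL6 encodes a transcriptional repressor known from germinal centre B cells (ENSG00000113916, chromosome 3, 187721377 to 187745727, minus strand). It was at 4.17, 1.85 and 2.34 CPM in the FBS libraries and at 5.44, 2.52 and 2.42 CPM in the SS libraries. In each group replicate 1 was the highest and the other libraries lay between 1.85 and 2.52 CPM. The log2 fold change was 0.30 (95% interval -0.79 to 1.39, edgeR adjusted p = 0.888), and without SS replicate 1 it was -0.16.

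The sestrins are stress-induced proteins that restrain mTORC1 through the GATOR complexes. SESN3 (ENSG00000149212, chromosome 11, 95165513 to 95232541, minus strand) was at 1.47, 1.19 and 1.75 CPM in the FBS libraries and at 0.816, 3.51 and 1.67 CPM in the SS libraries. The SS libraries lay on both sides of the FBS range, and the log2 fold change of 0.45 (edgeR adjusted p = 0.864) turned to -0.23 without SS replicate 2. SESN1 (ENSG00000080546, chromosome 6, 108986437 to 109094819, minus strand) had 26, 17 and 10 counts with FBS and 5, 28 and 0 counts without serum. Its SS libraries thus spanned a range that held all 3 FBS libraries (log2 fold change -0.68, 95% interval -2.88 to 1.52, edgeR adjusted p = 0.874). The value was -0.07 with the GC and length correction, -0.07 without SS replicate 3 and -2.65 without SS replicate 2. SESN2, the third sestrin and not one of the 10 genes, was at 41.6, 42.1 and 40.8 CPM in the FBS libraries and at 77.3, 140 and 81.6 CPM in the SS libraries. Those groups did not overlap, and the log2 fold change was 1.27 (95% interval 0.63 to 1.90, edgeR adjusted p = 0.111).

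KLHL24 encodes an adaptor of the cullin-3 ubiquitin ligase (ENSG00000114796, chromosome 3, 183635568 to 183684477, plus strand). It had 24, 15 and 33 counts with FBS and 0, 15 and 32 without serum. PIK3IP1 encodes a membrane protein that binds and inhibits PI3K (ENSG00000100100, chromosome 22, 31281593 to 31292534, minus strand), and it had 11, 7 and 12 counts with FBS and 0, 14 and 6 without serum. SS replicate 1 held no count of either gene. A count of 0 there sets no firm limit on the level, since that library held more zeros than counting error gives. Log2 fold changes were -0.89 for KLHL24 (95% interval -2.82 to 1.05, edgeR adjusted p = 0.791) and -0.73 for PIK3IP1 (-3.03 to 1.57, 0.871). Without SS replicate 1 they were -0.31 and -0.18. They were lower with another library left out: -1.71 for KLHL24 without SS replicate 3 and -1.96 for PIK3IP1 without SS replicate 2.

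For these low genes the counts were also summed by group. The ratio of SS to FBS per scaled total was 0.621 for PIK3IP1, with an exact binomial 95% interval of 0.334 to 1.13. It was 0.608 (0.412 to 0.891) for KLHL24, 0.58 (0.364 to 0.913) for SESN1 and 1.40 (1.04 to 1.89) for SESN3. These intervals cover counting error only, and the libraries differed by more than that. Among tested genes whose mean in the other 5 libraries was 0.5 to 2 CPM, 265 of 2337 (11.3%) had no count in SS replicate 1, and 203 of 2402 (8.45%) had none in SS replicate 3, where SESN1 was at 0. Counting error alone would leave at most 0.1 such genes. In SS replicate 2 the share was 0.505%, and in the FBS libraries 0.424% to 3.06%.

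**Figure D3:**
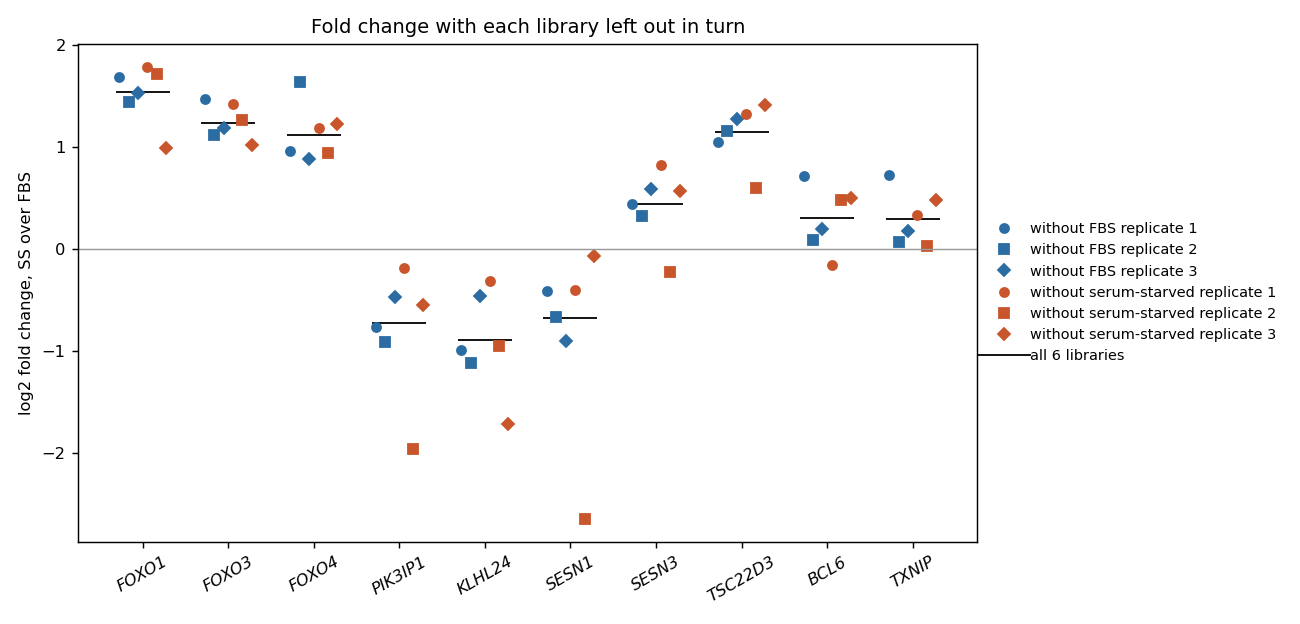
Log2 fold change, serum-starved over FBS (y axis), of each gene when 1 library is left out (blue for an FBS and orange for an SS library removed; circle, square and diamond for replicates 1, 2 and 3) and with all 6 libraries (black bar). FOXO1, FOXO3, FOXO4 and TSC22D3 stay above 0, which groups that do not overlap make nearly certain, SESN3 and BCL6 cross 0 with 1 library removed, and SESN1 reaches -2.65 without SS replicate 2.

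GC content and length of the members were set beside the trends of the libraries. FOXO1 and FOXO3 have long gene models (6232 and 7721 bases), and the trend fitted to SS replicate 3 raised genes of their length and GC content by 0.31 on the log2 scale in both cases. FOXO4 and TSC22D3 are richer in GC (57.9% and 57.4%). The fitted trend lowered them by 0.33 and 0.18 in SS replicate 3 and raised them by 0.44 and 0.40 in SS replicate 1. In FBS replicate 1 the fitted log2 deviations of FOXO4 and TSC22D3 were -0.325 and -0.354. After a per-library correction for both properties, FOXO3 was at 6.66, 4.23 and 4.53 CPM in the FBS libraries and at 9.32, 10.6 and 12.1 CPM in the SS libraries. FOXO1 was at 1.08, 0.83 and 0.929 against 2.15, 1.93 and 3.65 CPM. TSC22D3 was at 8.93, 8.31 and 9.78 against 11.6, 29.1 and 13.5 CPM, and FOXO4 at 2.51, 4.04 and 1.64 against 4.18, 6.77 and 6.41 CPM. The groups of all 4 remained apart, for FOXO4 by 4.04 against 4.18 CPM, in a setting where 11.4% of tested genes were apart with SS higher. The corrected log2 fold changes were 1.05 for FOXO3, 1.44 for FOXO1, 1.08 for FOXO4 and 1.00 for TSC22D3, with edgeR adjusted p-values of 0.111, 0.191, 0.207 and 0.158. None of the 10 genes passed with the correction, which called 0.828% of genes (0.603% higher, 0.225% lower).

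Per gene length, the 10 genes ranged over more than an order of magnitude on the authors' FPKM scale, which divides fragments by gene length and library size. TSC22D3 was at 1.75 ± 0.282 FPKM with FBS and 3.89 ± 2.14 without serum (SD, n = 3), and TXNIP at 2.37 ± 1.04 and 2.91 ± 0.889. Then followed FOXO4 (0.762 ± 0.404 and 1.65 ± 0.331), FOXO3 (0.608 ± 0.151 and 1.44 ± 0.378) and BCL6 (0.456 ± 0.194 and 0.569 ± 0.284). FOXO1 was at 0.146 ± 0.0253 and 0.424 ± 0.228 FPKM. SESN3, SESN1, KLHL24 and PIK3IP1 had means over the 6 libraries of 0.16, 0.154, 0.122 and 0.119 FPKM, above at most 5% of tested genes. TXNIP was above FOXO4, and FOXO3 above BCL6, in all 6 libraries. FOXO4 was above FOXO3 in 3 of 6 libraries, and each neighbouring pair from FOXO1 down to PIK3IP1 kept its order in 2 to 4 of 6. The genes within each of those pairs could not be ranked, and pairs further apart were not compared.

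Relatives outside the 10 genes included the most abundant FOXO, sestrin and TSC22 genes per length. FOXO6, a FOXO factor known mainly from brain, was the most abundant FOXO gene at 3.83 ± 1.89 FPKM with FBS and 6.35 ± 0.485 without serum (SD, n = 3). In CPM it was at 4.22, 12.9 and 11 with FBS and 16.2, 16.4 and 14.3 without serum, groups that did not overlap, with a log2 fold change of 0.74 (95% interval -0.11 to 1.59, edgeR adjusted p = 0.543). SESN2 was at 11.7 ± 0.238 and 28.1 ± 9.84 FPKM, far above SESN1 and SESN3 in every library. Within the TSC22 family, TSC22D4 (14.5 ± 2.54 and 14.5 ± 4.39 FPKM) and TSC22D1 (3.83 ± 0.508 and 5.73 ± 1.97) had higher means than TSC22D3, and TSC22D2 had lower ones (0.75 ± 0.299 and 1.17 ± 0.679). Among the arrestin relatives of TXNIP, ARRDC1 and ARRDC2 were the most abundant, with means over the 6 libraries of 15.9 and 2.39 FPKM. The less abundant ARRDC4, which shares MondoA control with TXNIP, was at 1.68, 1.67 and 1.56 CPM in the FBS libraries and at 0.476, 0.494 and 1.54 CPM in the SS libraries (log2 fold change -0.94, edgeR adjusted p = 0.706). Of the 12 tested relatives none passed; with the GC and length correction TXN, the thioredoxin that TXNIP inhibits, passed as higher (log2 fold change 1.41, edgeR adjusted p = 0.0149), against 0.29 and 0.798 uncorrected.

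**Figure D4:**
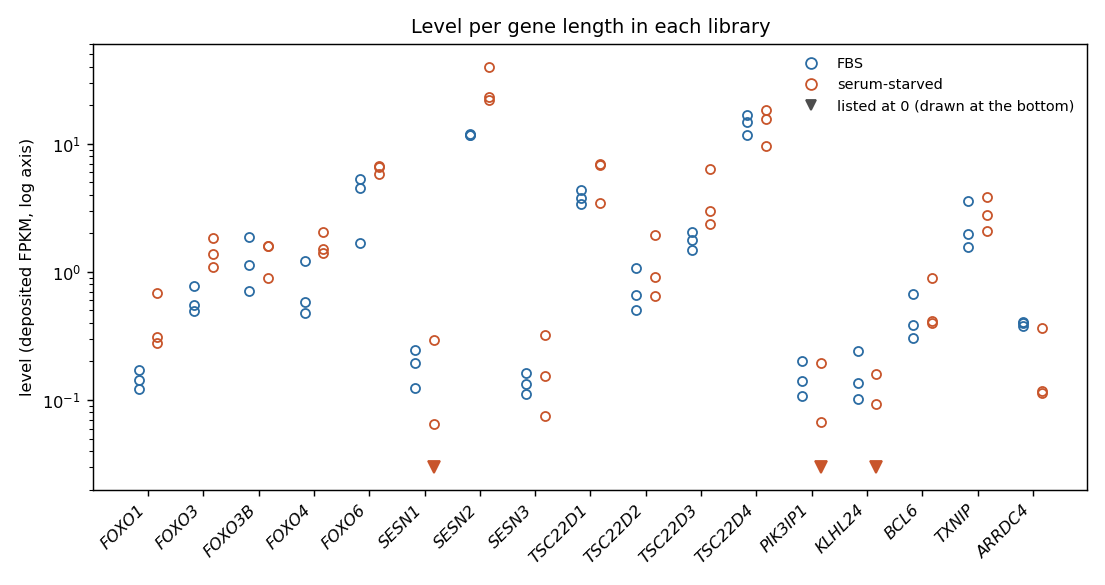
Deposited FPKM (y axis, log scale) of the 10 genes and 7 relatives in each library, blue for FBS and orange for serum-starved; triangles at the bottom mark libraries listed at 0. Within each library FOXO6 and SESN2 lie above the other FOXO and sestrin genes shown. SESN1, PIK3IP1 and KLHL24 have 1 serum-starved library each at 0.

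Sequences before the annotated starts were searched for letters that forkhead proteins are known to bind, because 4 of the 10 genes were higher in every serum-starved library. The first motif was TGTTTAC, the second was TGTTTTG and the third was TGTTTGC. Each was searched on both strands in RefSeq windows of 300 bases (250 before to 50 after a start, GRCh38.p14). The 3 motifs do not overlap with one another in these windows. The 10 genes had 21 windows, up to 4 for a gene. TGTTTAC was in 4 of the 21 windows and in 3.42% of all 35116 windows, TGTTTTG in 1 and in 4.92%, and TGTTTGC in 0 and in 3.89%. Any of the 3 motifs was in 5 of the 21 windows and in 11.55% of all windows. This is a share of windows and not of genes, since a gene can have several. The matches lay in FOXO4, PIK3IP1, KLHL24, TSC22D3 and TXNIP, and the windows of FOXO1, FOXO3, SESN1, SESN3 and BCL6 held none. Shown are 27 bases around each match, 5′ to 3′ on the gene's strand, with the match in capitals (GTAAACA is the first motif read on the other strand).
TSC22D3: agtgctgaacTGTTTACagtcccagcc
FOXO4: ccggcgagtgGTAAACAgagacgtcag
TXNIP: cgggctcctgGTAAACAaggaccgggc
PIK3IP1: aaagagaggcTGTTTACcagaacagca
KLHL24: tgacgctcagTGTTTTGgcccggacgg
In TSC22D3 the match begins 147 bases before a start inside the long gene model (chrX:107717193-107717219, minus strand), and in TXNIP 124 bases before the start (chr1:145996687-145996713, minus strand). In FOXO4 it begins at base 24 after the start (chrX:71095864-71095890, plus strand) and in PIK3IP1 at base 17 (chr22:31292456-31292482, minus strand). In KLHL24 it begins 32 bases before the start (chr3:183635581-183635607, plus strand). These positions count from RefSeq starts, which differ from the gene coordinates given earlier. By those coordinates the FOXO4 match lies before the gene (start 71096197), and the KLHL24 match lies inside it (start 183635568). The windows with a match belong to 2 of the 4 genes whose groups did not overlap and to 3 of the 6 whose groups did. A match describes letters and not binding.

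The rest of the pathway was read from lists of genes by role. Among 14 tested receptors and adaptors above PI3K, 13 had a fold change above 0 (48.5% of all tested genes did). At an unadjusted edgeR p under 0.05, 7 were higher (6.01% of all tested genes were). None passed the adjusted threshold (median log2 fold change 0.66). ERBB3, the kinase-poor partner receptor of the EGFR family and a reported FOXO target, was at 39.5, 51.5 and 65.6 CPM in the FBS libraries and at 106, 98.1 and 155 CPM in the SS libraries (log2 fold change 1.19, 95% interval 0.55 to 1.84, edgeR adjusted p = 0.153). IRS2, an adaptor of the insulin and IGF receptors, was at 20.7, 21.3 and 18.5 CPM and at 36.0, 36.5 and 48.1 CPM (log2 fold change 1.00, edgeR adjusted p = 0.256). Neither gene overlapped between groups. With the GC and length correction the median of this list was 0.34, against 0.01 over all tested genes.

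The next list held PI3K, AKT and the phosphatases that oppose them. It also held PDPK1, the SGK and GSK3 kinases, and genes of the mTOR complexes and their TSC regulators. Of its 28 tested genes none passed, 15 had a fold change above 0 and the median was 0.11. PHLPP1, a phosphatase that acts on AKT, averaged 16.9 ± 0.983 CPM in FBS and 30.8 ± 1.84 in SS libraries (SD, n = 3), a log2 fold change of 0.86 at an edgeR adjusted p of 0.315. PIK3C2B, a class II PI3K, had a log2 fold change of 1.40 (0.346). None of 27 tested regulators of FOXO proteins passed (median -0.07). CDK1, a cell cycle kinase that can phosphorylate FOXO1, was at 43.4, 26.6 and 16.8 CPM in the FBS libraries and at 7.48, 9.50 and 11.3 CPM in the SS libraries (log2 fold change -1.62, edgeR adjusted p = 0.0896), and the acetyltransferase EP300 had a log2 fold change of 1.00 (0.315). With the GC and length correction the value of CDK1 was -0.78.

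Of 48 other genes reported as FOXO targets, 38 were tested, 1 rose, none fell and 37 did not pass, with 22 fold changes above 0 and a median of 0.24. The gene that rose was DDIT4, an inhibitor of mTORC1 that is also induced by stress. It was at 5.39, 7.21 and 7.54 CPM in the FBS libraries and at 14.9, 59.9 and 29.8 CPM in the SS libraries (log2 fold change 2.38, 95% interval 1.47 to 3.29, edgeR adjusted p = 0.0225). The list had no called gene when any FBS library or SS replicate 2 was left out. Groups did not overlap for 6 of the 38, DDIT4 included, with SS higher and for 4 with SS lower, against 10% and 7.65% of all tested genes. Those higher with the smallest p after DDIT4 were SESN2, PNRC1 and ULK1, with log2 fold changes of 1.27, 1.42 and 1.14 that did not pass (edgeR adjusted p = 0.111, 0.129 and 0.162). Those lower were PMAIP1, S1PR1, ATG12 and BNIP3, at -1.36, -0.83, -0.65 and -0.40, which did not pass either (edgeR adjusted p = 0.4, 0.329, 0.561 and 0.673). With the GC and length correction PNRC1 passed at 0.00287, and S1PR1, a sphingosine phosphate receptor, passed as lower at 0.0486 (log2 fold change -0.90). The median of this list was -0.07 without SS replicate 3, and 5 genes were then called higher and 1 lower. Of 9 tested genes listed as repressed by FOXO factors, 1 fell, none rose and 8 did not pass (median -0.38). The gene that fell was ID1 (log2 fold change -2.49, edgeR adjusted p = 0.00186), which did not pass without FBS replicate 1. On this list 2 fold changes were above 0. Groups did not overlap for 1 gene with SS higher and for 1 with SS lower, against 10% and 7.65% of all tested genes. ID1 is also a direct target of BMP signalling.

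**Figure D5:**
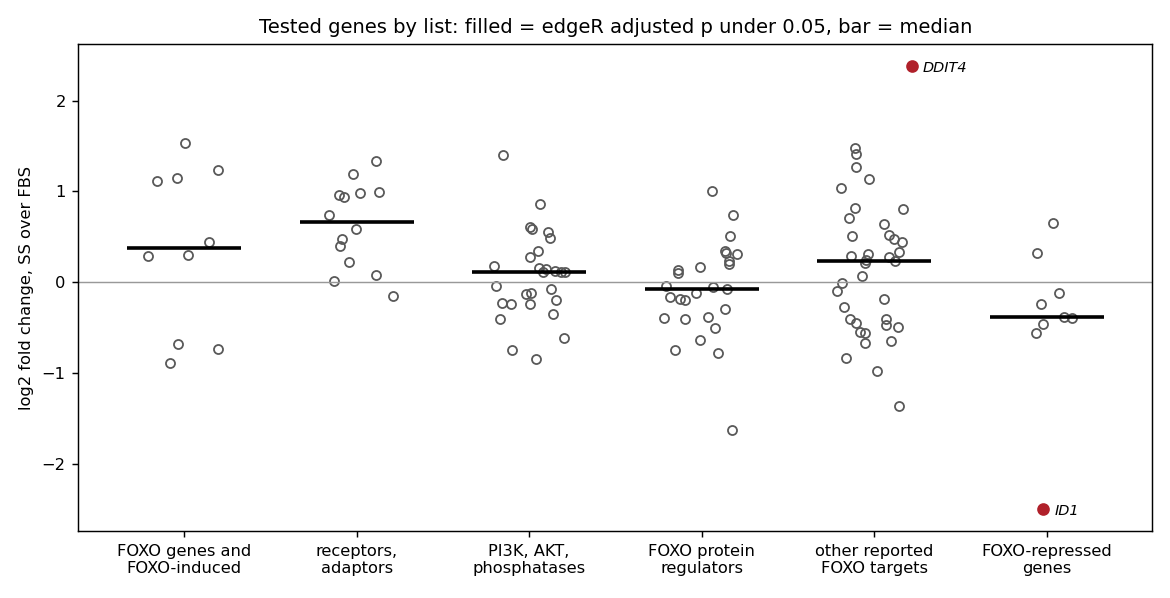
Log2 fold change, serum-starved over FBS (y axis), of every tested gene of the 10 members and of 5 pathway lists (x axis); filled points passed an edgeR adjusted p of 0.05, open points did not, and bars are medians. DDIT4 at 2.38 and ID1 at -2.49 are the 2 filled points, and no member is filled.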

How the data were processed

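RNA-seq of 6 Ovcar8 libraries was used, grouped by sample title (3 with FBS, 3 serum-starved). Tools named per the submitters' processing notes were STAR 2.6.1 and DESeq2, with build GRCh38. What each did, how reads were counted and whether strand was used is not given in the sources used here. Raw counts per gene and FPKM were deposited by the authors, per the file headers. All 58735 gene positions matched GENCODE 29. Genes overlapping a member held at most 8 counts over all libraries.

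Genes were filtered with filterByExpr (minimum count 10, minimum total 15), which kept 13772 and all 10 members. They were scaled with TMM and tested two-sided with edgeR 4.0.16 in R 4.3.3 (robust glmQLFit, glmQLFTest), the Benjamini-Hochberg adjusted threshold being 0.05. Intervals were derived from the fold change and its F statistic. A floor of 3 counts was 0.132 to 0.204 CPM; floors and count ratios cover counting error only, as reads carry no molecular identifiers. The GC and length correction used splines (5 degrees of freedom) per library as offsets, with GENCODE 29 transcript GC for 13768 tested genes. Other alternatives were DESeq2 1.42.0, limma 3.58.1 (voom; log2(FPKM + 1) and log2(FPKM + 0.1)), other scalings and filters, a replicate block and each library left out. The code was tested on simulated data.

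All members are named; from other lists, passing genes or else the 2 with the smallest p, and relatives by level. ARRDC4, TXN, cell type markers outside that rule and, among targets, all but DDIT4 were named after their values were seen. Members and lists were chosen with earlier results of these data known.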

Additional observations from a re-analysis of the deposited data

How the results depend on the processing

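No tested member passed in 17 of 18 alternatives. The stricter filter tested 8 of the 10, log2(FPKM + 1) and log2(FPKM + 0.1) tested 5, and DESeq2 gave 8 an adjusted p. The count was 1 (TSC22D3, log2 fold change 1.41) without SS replicate 3 and 0 without any other library. FOXO1, FOXO3, FOXO4 and TSC22D3 stayed above 0 in every alternative that tested them, which groups that do not overlap make nearly certain. With libraries left out SESN3 ranged from -0.23 (without SS replicate 2) to 0.82 and BCL6 from -0.16 (without SS replicate 1) to 0.72; the cause was not tested. Over all genes, 39 were called (33 higher, 6 lower), 25 with total counts, 127 without a low-count filter, 160 (118 higher, 42 lower) with DESeq2, 114 (83 higher, 31 lower) with the GC and length correction, 22 and 19 with log2(FPKM + 1) and log2(FPKM + 0.1), and 0 with log2(FPKM + 1) unfiltered. Leaving out libraries gave 4 to 256, the lowest without FBS replicate 1 and the highest without SS replicate 3 (123 higher, 133 lower).

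In the receptor and adaptor list 1 gene was called without a low-count filter and 1 with DESeq2, against 0. Among regulators of FOXO proteins 1 was called without the filter, 1 with DESeq2 and 0 to 1 when a library was left out. Among other FOXO targets the count of 1 became 0 with total counts, limma-voom and all FPKM fits, 3 without the filter, 4 with DESeq2, 3 with the GC and length correction and 0 to 6 when a library was left out (0 without each FBS library and without SS replicate 2, where DDIT4 was lost). ID1 in the repressed list was lost without FBS replicate 1 (range 0 to 1) and in unfiltered FPKM (0). The causes were not tested.

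With the replicate number as a block 43 genes were called, 0 of the 10 among them. With the replicate block and the GC and length correction together 117 were called, and 1 receptor or adaptor and 2 other FOXO targets. Deviations of same-numbered libraries correlated at -0.25, 0.10 and -0.08, and 1 of the 6 libraries (SS replicate 2) correlated best with its own number. These values showed no pairing by number. Whether same-numbered libraries shared a culture or day cannot be told from them, since the GC and length trends of the libraries were not removed.

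A gene near 10 counts per library, such as PIK3IP1, has an interval wide enough to hold a 2-fold change in either direction.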
